A study of Homo sapiens with 10 samples.

Results

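The active chromatin mark H3K27ac (acetylated lysine 27 of histone H3) was examined at 10 genes of the Hippo pathway in H1975 cells. The genes were YAP1, WWTR1 (which encodes TAZ), TEAD1, TEAD3, TEAD4, VGLL3, VGLL4, LATS1, NF2 and SAV1. Their members are all regions of the deposited annotated count table that carry 1 of these gene symbols, and there were 130 of them among 67387 annotated regions, all of equal width. VGLL4 had 28 regions, WWTR1 25, NF2 21, TEAD1 20, YAP1 19, TEAD3 8, SAV1 5, TEAD4 3 and LATS1 1, while VGLL3 had none. Of the 130 regions, 36 lay within 1 kb of a transcription start site and are called promoter regions here, 13 lay at 1 to 3 kb and are called flanks, and 81 lay farther away and are called distal. The symbol is that of the nearest transcript in the annotation and does not show which gene a region acts on.

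The Hippo pathway is a kinase cascade that limits organ growth. With the scaffolds NF2 and SAV1, MST kinases activate the LATS kinases, which phosphorylate YAP and TAZ and keep these coactivators out of the nucleus, where they otherwise bind DNA through TEAD transcription factors. VGLL proteins bind TEADs at the surface that YAP and TAZ use, and in EGFR mutant lung cancer YAP activity has been tied to survival under EGFR inhibitors. H3K27ac marks active promoters and enhancers, and its level is not a measure of RNA or protein.

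H1975 is an established lung adenocarcinoma cell line with mutant EGFR, and all libraries came from this single line. DMSO cells spent 21 days free of drug and then 3 days in DMSO. Osimertinib DTP cells, drug-tolerant persisters that survive the EGFR inhibitor, spent 24 days in osimertinib at 500 nM. In osimertinib DTP + AZD5153, 21 days in the same dose of osimertinib came before 3 days in 150 nM AZD5153, an inhibitor of BET bromodomain proteins. Whether osimertinib stayed on during those last days is not stated, and the cultures of this last group spent fewer days in osimertinib alone than those of osimertinib DTP. Each group had 3 replicates, described as biological, and 1 pooled input library served as the control without antibody. In bulk libraries, fewer cells that carry the mark and less of the mark per cell cannot be told apart.

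Total counts per H3K27ac library ranged from 6263443 to 10463351. Replicate 3 of osimertinib DTP + AZD5153 stood apart: it had the lowest total, its Spearman correlation with its replicates over regions was 0.367 to 0.445 against 0.805 to 0.893 among the other replicates of a group, and promoter regions took 66.7% of its counts over the annotated regions. That share was 59.8% for osimertinib DTP replicate 2, and the remaining 7 libraries had 40.3% to 45.9%. Counts of called members are therefore given with and without the library that stood apart, and tests of single regions mostly with it. The input had a median count of 12.5 over the 130 member regions and at most 43 in any of them, against a median of 10 over all 169637 regions of the full table, which are the base of the tests. Promoter regions of the epithelial genes EPCAM, KRT7 and KRT8 reached mean counts of 349, 511 and 612, while PTPRC, CD3E, PECAM1 and ALB had no promoter region. Among the other markers, KRT18 reached 101, CDH1 133, NKX2-1 174, NAPSA 155, SFTPB 44.3 and the fibroblast gene COL1A1 138, against a median of 103 over promoter regions.

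The sequences just before 4 of the genes are shown because their promoters carry the contrasts described here: YAP1 as the gene with a TEAD match, WWTR1 as a start whose acetylation was assigned to another gene, NF2 as the start beside the member promoter region with the highest mean count over the 9 libraries, and SAV1 as the only gene whose summed promoter passed edgeR's test. Each is the run of 250 bases before a transcript's first base, 5′ to 3′ on the gene's strand, from RefSeq (GRCh38.p14). Capitals mark GGAATG or its reverse complement CATTCC (the core of the TEAD motif) and GGGCGG or its reverse complement CCGCCC (the core bound by SP and KLF factors).
YAP1: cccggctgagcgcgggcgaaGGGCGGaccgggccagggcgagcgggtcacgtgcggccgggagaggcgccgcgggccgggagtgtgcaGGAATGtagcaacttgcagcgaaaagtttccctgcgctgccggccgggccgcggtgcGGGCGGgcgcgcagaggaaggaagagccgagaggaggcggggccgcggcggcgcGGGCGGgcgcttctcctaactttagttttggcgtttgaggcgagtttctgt
WWTR1: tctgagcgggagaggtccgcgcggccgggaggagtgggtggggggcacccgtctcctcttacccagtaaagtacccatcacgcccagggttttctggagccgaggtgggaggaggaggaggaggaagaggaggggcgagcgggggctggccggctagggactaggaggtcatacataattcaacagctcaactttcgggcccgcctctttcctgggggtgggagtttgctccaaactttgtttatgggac
NF2: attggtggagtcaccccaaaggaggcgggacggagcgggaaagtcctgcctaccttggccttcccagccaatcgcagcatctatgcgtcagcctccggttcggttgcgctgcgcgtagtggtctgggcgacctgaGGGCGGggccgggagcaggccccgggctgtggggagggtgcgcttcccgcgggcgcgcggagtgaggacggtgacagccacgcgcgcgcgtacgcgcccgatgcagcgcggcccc
SAV1: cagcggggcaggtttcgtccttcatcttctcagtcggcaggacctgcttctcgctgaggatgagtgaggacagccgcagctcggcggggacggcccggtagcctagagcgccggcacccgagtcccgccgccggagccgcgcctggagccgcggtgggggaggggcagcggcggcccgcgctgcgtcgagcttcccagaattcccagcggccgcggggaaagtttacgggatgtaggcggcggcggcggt
These runs lie at chr11:102110197-102110446 (plus strand), chr3:149658026-149658275 (minus strand), chr22:29603383-29603632 (plus strand) and chr14:50668307-50668556 (minus strand). YAP1 held 1 GGAATG and 3 GGGCGG, NF2 held 1 GGGCGG, and the letters of neither motif were in the runs of WWTR1 and SAV1. The RefSeq table held 15 windows for 8 of the 10 members (TEAD1 and TEAD4 were missing), each of 300 bases, 250 before the start and 50 after it. The TEAD core was in 1 of these 15 windows and in 14% of all 35116 windows, and the SP/KLF core in 8 of 15, from LATS1, NF2, TEAD3, VGLL3, VGLL4 and YAP1, and in 45.0% of all. The AP-1 letters TGANTCA were in 1 member window (LATS1) and 7.71% of all, and the ETS letters GGAAGTG or CACTTCC in 1 (VGLL4) and 11.2% of all. Both strands were searched, and GGAATG and GGAAGTG begin with the same letters but cannot start at the same base. A match describes the sequence and not a bound site.

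Osimertinib DTP was compared with DMSO first, which asks how the marked regions of these genes differed in cells that had survived the EGFR inhibitor. Of the 130 regions, 14 passed edgeR's quasi-likelihood test at a Benjamini-Hochberg adjusted p under 0.05, 12 of them lower and 2 higher, against 10.7% of all tested regions (5.13% lower, 5.58% higher). Unless another fit or tool is named, called means past this test in the fit of all 9 libraries. The share over all members (14 of 130) was thus near that of all tested regions, a base that also holds regions without annotation. The calls were not spread evenly: 13 were at WWTR1 and 1 was at VGLL4. WWTR1 had 12 lower and 1 higher of its 25 regions. By class, 1 of 36 promoter regions, 5 of 13 flanks and 8 of 81 distal regions were called (2.78%, 38.5% and 9.88%). Of the annotated regions of the same class, 4.63%, 14.3% and 20.6% were. The median log2 fold change was 0.33 over the members and 0.15 over all regions. Without replicate 3 of osimertinib DTP + AZD5153, which shares the estimate of the spread, 30 members were called (12 higher, 18 lower), against 26.8% of all regions (14.2% higher, 12.7% lower), and 20 of them were at WWTR1, 5 at VGLL4, 2 each at YAP1 and NF2 and 1 at TEAD3.

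Adding AZD5153 to persisters gave no call. In osimertinib DTP + AZD5153 against osimertinib DTP, 0 of 130 member regions passed edgeR's test, where 0 of all tested regions did. At an unadjusted p under 0.05 there were 5 members and 7013 of all regions, DESeq2 called 0 members and limma voom with library quality weights called 5. The shares over all regions in DESeq2 and voom are not given. Without the library that stood apart, the edgeR count stayed at 0 of 130 while 0.122% of all regions were called.

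Against DMSO, the sequential treatment gave 22 called regions by edgeR, 17 lower and 5 higher, where 18.1% of all regions were called (9.01% lower, 9.05% higher). WWTR1 held 17 of them, 15 lower and 2 higher. The remaining calls were 2 lower at YAP1 and 1 higher each at TEAD1, VGLL4 and NF2. Promoter regions gave 2 calls, flanks 6 and distal regions 14, against 8.50%, 23.3% and 30.4% of annotated regions of each class. The split was 2 higher and 17 lower when library sizes were not scaled by TMM and 10 higher and 19 lower in DESeq2. The shares over all regions in these settings are not given, so changes at these genes alone cannot be told apart from changes over all regions. Without replicate 3 of the sequential group the edgeR split was 18 higher and 20 lower, against 35.7% of all regions (18.4% higher, 17.3% lower), 20 of these calls being at WWTR1. The other calls were 6 at VGLL4 (5 higher, 1 lower), 5 at NF2, 3 at TEAD1 and 1 at SAV1, all higher, and 3 at YAP1, all lower. Both comparisons with DMSO use the same 3 DMSO libraries, so their calls are not independent.

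**Figure D1:**
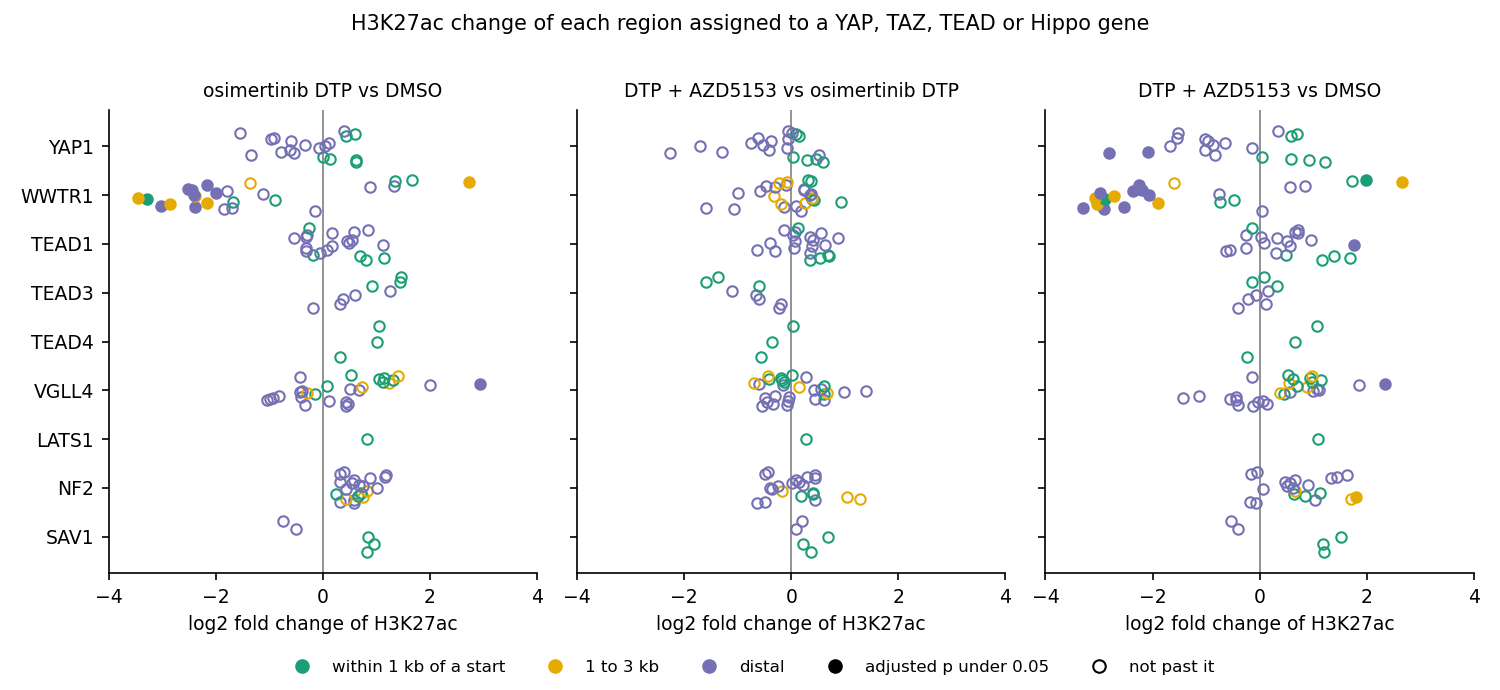
Log2 fold change (horizontal axis) of each of the 130 member regions, by gene, in the 3 comparisons. Each point is 1 region, coloured by its class and filled where the edgeR adjusted p was under 0.05. WWTR1 spreads farthest below 0, with 12 and 15 regions called lower against DMSO, the middle panel has no filled point, and the 21 NF2 regions all lie above 0 in osimertinib DTP against DMSO.

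YAP1, the transcriptional coactivator that the pathway holds back, kept an acetylated promoter in every group. Its promoter region with the highest mean count, at chr11:102110933-102111434, had 25.8, 27.3 and 22.7 CPM (the count relative to the TMM-scaled library size) in DMSO, 28.9, 69.3 and 19 in osimertinib DTP, with 27.2, 23.4 and 93.0 in the sequential group. At this region only replicate 2 of osimertinib DTP and replicate 3 of the sequential group exceeded the DMSO range clearly. These were the 2 libraries with the highest share of counts at promoters, and the part of that share in the levels was not tested. Summed over its 6 promoter regions (a separate CPM scale, relative to the counts in summed genes), YAP1 had 160, 126 and 117 in DMSO. Osimertinib DTP had 185, 165 and 135, and the sequential group had 210, 180 and 212, above every DMSO library. Against DMSO edgeR called neither sum (adjusted p = 0.588 and 0.151). Voom with quality weights called both higher (adjusted p = 0.0458 and 0.00686). No YAP1 region was called by edgeR in osimertinib DTP against DMSO with all 9 libraries, while DESeq2 and voom with quality weights called 1 each, and edgeR called 2 without replicate 3 of the sequential group, all of them lower.

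Inside YAP1, 2 neighbouring distal regions fell in the sequential group against DMSO. The region at chr11:102138184-102138685, in an intron, had 24.5, 24.4 and 16.3 CPM in DMSO, while osimertinib DTP had 16.7, 11.6 and 9.67 and osimertinib DTP + AZD5153 had 7.61, 6.05 and 1.55. The sequential libraries did not overlap with either other group, and the log2 fold change against DMSO was −2.08 (SE 0.60, edgeR adjusted p = 0.0250). At chr11:102137484-102137985 the counts were 58, 36 and 48 in the DMSO libraries, 43, 11 and 37 in those of osimertinib DTP and 13, 0 and 3 in those of the sequential group, a log2 fold change against DMSO of −2.81 (SE 0.81, edgeR adjusted p = 0.0238). Both calls were lost when any 1 DMSO library was left out: the edgeR adjusted p became 0.0762, 0.0973 and 0.0623 for the first region and 0.0663, 0.0623 and 0.0731 for the second, without DMSO replicate 1, 2 and 3. The distal region of YAP1 with the most counts, at chr11:102177919-102178420, had 17, 23.2 and 16.1 CPM in DMSO, against 14.5, 11.7 and 11.2 in osimertinib DTP, with 13, 13.4 and 2.13 in the sequential group, and was not called.

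**Figure D2:**
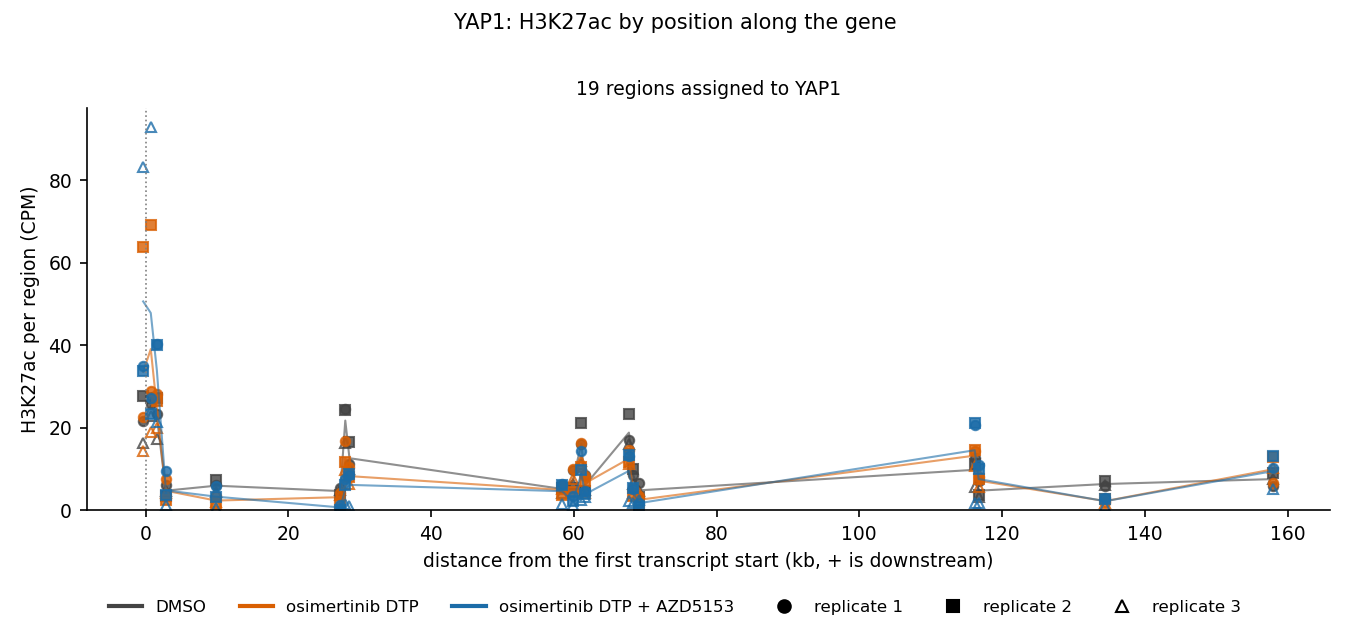
CPM at the 19 YAP1 regions by distance in kb from the first transcript start, with lines for group means and points for libraries. The promoter region with the highest mean count, at the left, has 1 high library in each treated group, which does not hold for every promoter region. The first cluster of distal regions holds the 2 regions called lower in osimertinib DTP + AZD5153 against DMSO.

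WWTR1 encodes TAZ, the paralog of YAP, and its regions differed by the transcript start they lay nearest to. Near a start inside the gene, at chr3 position 149576252, 16 regions between 149571254 and 149604584 summed to 272, 417 and 323 CPM in DMSO, while osimertinib DTP had 102, 86.8 and 86.2 and osimertinib DTP + AZD5153 had 132, 132 and 67.3. All 6 treated libraries were below every DMSO library, and 11 of the 16 regions were called lower in osimertinib DTP and 12 in the sequential group, each against DMSO. The group means were 337 ± 73.4, 91.8 ± 9.17 and 110 ± 37.3 CPM (SD, n = 3).

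The steepest change was at chr3:149578055-149578556, a flank of the internal start. It had 26.0, 37.4 and 35.0 CPM in the DMSO libraries, 4.21, 1.39 and 3.22 in those of osimertinib DTP and 4.81, 1.75 and 5.22 in those of the sequential group. The log2 fold change against DMSO was −3.46 (SE 0.63, edgeR adjusted p = 0.00459) in osimertinib DTP and −3.07 (SE 0.62, edgeR adjusted p = 0.00403) in osimertinib DTP + AZD5153. The treated groups overlapped with each other and not with DMSO.

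Its neighbour at chr3:149577210-149577711, a promoter region of the internal start and the only called member promoter in osimertinib DTP, had 21.4, 40.2 and 32.2 CPM in DMSO, against 4.21, 1.39 and 3.93 in osimertinib DTP, with 4.21, 3.26 and 5.22 in the sequential group. Its log2 fold change in osimertinib DTP was −3.28 (SE 0.60, edgeR adjusted p = 0.00464). These 2 neighbours were the only members called in osimertinib DTP against DMSO in all 9 fits that left out 1 library. An exonic region at chr3:149572428-149572929 fell from 14.7, 21.0 and 15.7 CPM to 2.49, 1.53 and 2.22 in osimertinib DTP, a log2 fold change of −3.03 (SE 0.60, edgeR adjusted p = 0.00626), which was lost without DMSO replicate 2 (edgeR adjusted p = 0.0565).

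In the sequential group, further members fell beside these. At the flank chr3:149572994-149573495, levels were 25.9, 32 and 26.3 CPM in DMSO, against 6.79, 2.92 and 1.91 in osimertinib DTP, with 5.21, 3.14 and 1.74 in osimertinib DTP + AZD5153 (log2 fold change −3.04 against DMSO, SE 0.63, edgeR adjusted p = 0.00466). An intronic region nearer the 3′ end, chr3:149555829-149556330, had 4.81, 3.72 and 4.83 CPM in the DMSO libraries, 2.87, 0 and 1.11 in those of osimertinib DTP and 0.601, 0.465 and 0.193 in those of the sequential group. Its log2 fold change against DMSO was −3.29 (SE 0.91, edgeR adjusted p = 0.0200), and the call was lost without DMSO replicate 1, 2 or 3 (edgeR adjusted p = 0.0557, 0.0588 and 0.0667). Both regions were lower in every sequential library than in every DMSO library.

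The region over the internal start itself changed less. It lies at chr3:149575785-149576286 and had 43.7, 66.0 and 46.4 CPM in DMSO, against 28.4, 33.8 and 21.8 in osimertinib DTP, with 42.6, 46.7 and 23.0 in osimertinib DTP + AZD5153. Osimertinib DTP lay below DMSO in every library but was not called (edgeR adjusted p = 0.266), and the sequential group overlapped with DMSO. The distal WWTR1 region with the most counts, chr3:149581536-149582037, had 26.6, 48.2 and 33.7 CPM in DMSO, against 15.1, 17.8 and 16.9 in osimertinib DTP, with 23.3, 32.8 and 7.73 in the sequential group, and was not called either.

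An upstream start went the other way. Near the start at chr3 position 149736714, which lies outside the RefSeq bounds of WWTR1, 3 regions summed to 14, 25.4 and 16.1 CPM in the DMSO libraries, 46.4, 54.8 and 67.9 in those of osimertinib DTP and 78.4, 115 and 15.7 in those of osimertinib DTP + AZD5153. Every library of osimertinib DTP was above every DMSO library, whereas replicate 3 of the sequential group was within the DMSO range. At 1 of them, chr3:149734505-149735006, levels were 0.726, 0.620 and 0.805 CPM in DMSO, against 5.45, 2.92 and 6.04 in osimertinib DTP, with 5.21, 2.44 and 6.18 in the sequential group.

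That flank of the upstream start rose in both treated groups, by a log2 fold change against DMSO of 2.73 (SE 0.62, edgeR adjusted p = 0.0118) and 2.65 (SE 0.62, edgeR adjusted p = 0.00851). The first call was lost without DMSO replicate 1, 2 or 3 or osimertinib DTP replicate 3 (edgeR adjusted p = 0.0503, 0.0850, 0.0698 and 0.0533) and the second without DMSO replicate 2 (0.0585). The promoter region of this start, chr3:149736468-149736969, had 8.25, 12.5 and 8.95 CPM in DMSO, while osimertinib DTP had 23.7, 33.0 and 37.5 and the sequential group had 44.2, 66.8 and 5.99. It was called in the sequential group against DMSO (log2 fold change 1.98, SE 0.67, edgeR adjusted p = 0.0470). This call was lost in 8 of the 9 fits without a library, with edgeR adjusted p up to 0.180. It was also lost with the replicate number as a block (0.107). The fit without replicate 3 of the sequential group kept it, with a log2 fold change of 2.48 (edgeR adjusted p = 0.000207). Both regions were chosen for description after their values were seen.

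At the RefSeq start whose sequence is printed, the acetylated region was assigned in the table to WWTR1-AS1, an antisense gene, and so is no member. This region, chr3:149658198-149658699, had 43.1, 63.5 and 47.6 CPM in the DMSO libraries, 43.5, 114 and 43.4 in those of osimertinib DTP and 53.0, 65.0 and 130 in those of osimertinib DTP + AZD5153. Its log2 fold change in osimertinib DTP was 0.38 (SE 0.53, edgeR adjusted p = 0.723), and the groups overlapped. The assignment cannot tell WWTR1 and its antisense gene apart here.

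The other WWTR1 regions lay near 2 further internal starts. Those nearest position 149657435, 3 in number, summed to 11.1, 14 and 10.7 CPM in DMSO, against 8.32, 9.18 and 11.6 in osimertinib DTP, with 10.3, 8.26 and 3.48 in the sequential group, and 1 of them was called lower in both. The 3 nearest position 149542439 summed to 14.2, 12.5 and 13.5 CPM in DMSO, against 9.75, 5.15 and 5.94 in osimertinib DTP, with 9.62, 6.63 and 1.93 in osimertinib DTP + AZD5153, with 2 called lower in the last group. Leaving out 1 library at a time, WWTR1 had 2 to 20 called regions in osimertinib DTP, the lowest count being without DMSO replicate 2, and 6 to 20 in the sequential group. The shares over all regions in most of these fits are not given. A loss of calls at WWTR1 alone cannot then be told apart from a loss over all regions. The sign of no called member changed in any of these fits.

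**Figure D3:**
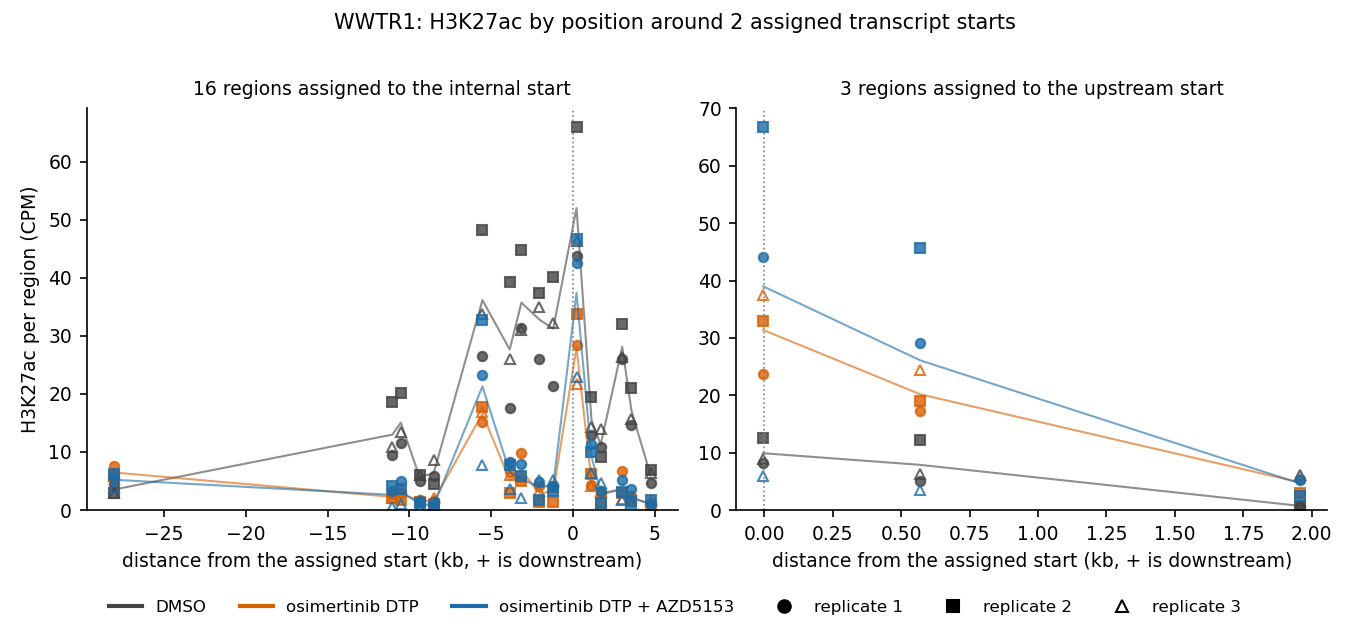
CPM by distance in kb from the assigned start, at the 16 WWTR1 regions of the internal start (left) and the 3 of the upstream start (right), with lines for group means and points for libraries. Around the internal start the DMSO means lie above the treated ones except at the most distant region, and near the upstream start the treated means lie above DMSO.

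TEAD1, TEAD3 and TEAD4 encode DNA-binding partners of YAP and TAZ, and none of their 31 regions was called by edgeR in osimertinib DTP against DMSO with all 9 libraries. Without replicate 3 of the sequential group 1 TEAD3 region was called higher, and with only both groups in the fit 2 were. The lead promoter region of TEAD1, chr11:12673670-12674171, had 10.2, 13 and 8.95 CPM in the DMSO libraries, 13.6, 32.4 and 10.8 in those of osimertinib DTP and 22.1, 20.2 and 29.6 in those of osimertinib DTP + AZD5153. Its lead distal region, chr11:12693807-12694308, had 25.4, 37.7 and 27.6 CPM in DMSO, against 29.2, 32.1 and 26.0 in osimertinib DTP, with 44.1, 55.7 and 12 in the sequential group. The sequential libraries were above DMSO at the promoter, while at the distal region replicate 3 was below all others.

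A TEAD1 intronic region, chr11:12746702-12747203, rose in the sequential group against DMSO. It had 1.90, 1.45 and 1.21 CPM in DMSO, against 2.96, 4.17 and 2.92 in osimertinib DTP, with 5.11, 5.24 and 5.22 in osimertinib DTP + AZD5153 (log2 fold change 1.76, SE 0.55, edgeR adjusted p = 0.0329). The 3 groups did not overlap. The call was lost without DMSO replicate 1, 2 or 3 (edgeR adjusted p = 0.0749, 0.131 and 0.173), without osimertinib DTP replicate 1 (0.0510) and without replicate 1 or 2 of the sequential group (0.0866 and 0.0727).

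TEAD3 was the member whose regions all had lower values after AZD5153 was added. All 8 had a negative log2 fold change in osimertinib DTP + AZD5153 against osimertinib DTP, with a median of −0.64 where the median over all regions was 0.06. None was called by edgeR or DESeq2, and voom with quality weights called 2 lower. Without replicate 3 of the sequential group the TEAD3 median was −1.48, where that over all regions was −0.17, and again none was called by edgeR. Its lead promoter region, chr6:35497431-35497932, had 7.98, 11.7 and 8.85 CPM in the DMSO libraries, 11.5, 56.4 and 11.1 in those of osimertinib DTP and 2.40, 5.12 and 23.2 in those of osimertinib DTP + AZD5153. Replicates 1 and 2 of the sequential group were below all other libraries and replicate 3 was above all but 1.

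Summed over its 3 promoter regions, TEAD3 had 26.7, 22.4 and 27.4 CPM in DMSO, against 33.2, 78.4 and 36.3 in osimertinib DTP, with 9.42, 12.2 and 42.4 in the sequential group (a separate CPM scale, relative to the counts in summed genes). The log2 fold change of this sum between the treated groups was −1.22 (SE 0.57, edgeR adjusted p = 1.00), and −1.75 in limma voom with quality weights (adjusted p = 0.0250). Without replicate 3 of the sequential group it was −2.12 (SE 0.38, edgeR adjusted p = 0.0736) against osimertinib DTP, and −1.21 (SE 0.37, edgeR adjusted p = 0.0362) against DMSO. Its lead distal region, chr6:35485811-35486312, had 21.7, 40.3 and 28.7 CPM in DMSO, against 15.0, 73.6 and 24.3 in osimertinib DTP, with 11.2, 36.3 and 51.6 in the sequential group, which overlapped throughout. Lower values after AZD5153 were not limited to TEAD3. The promoter sum of TEAD2, which is not a member, had 30.9, 42.8 and 26.7 CPM in osimertinib DTP. It had 12.9, 12.8 and 33.8 in the sequential group. Without replicate 3 of that group its log2 fold change was −1.32 (SE 0.30, edgeR adjusted p = 0.103).

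TEAD4 had 3 promoter regions and no distal one. The strongest, chr12:2958471-2958972, had 10.5, 13.3 and 8.95 CPM in the DMSO libraries, 11.9, 19.8 and 9.67 in those of osimertinib DTP and 8.42, 11.8 and 7.54 in those of osimertinib DTP + AZD5153. At this region the groups overlapped, and no TEAD4 region was called in any comparison by edgeR, DESeq2 or voom with quality weights. Summed over its promoter regions (a separate CPM scale, relative to the counts in summed genes), TEAD4 had 32.6, 26.9 and 29.3 in DMSO. Osimertinib DTP had 40.4, 43.3 and 39.9, above every DMSO library, and the sequential group had 25.6, 37.9 and 29.1. Between osimertinib DTP and DMSO edgeR did not call this sum (adjusted p = 0.297). Voom with quality weights called it higher (adjusted p = 0.0295).

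VGLL4 competes with YAP and TAZ for TEADs and had the most regions of the 10 genes. Its lead promoter region, chr3:11770709-11771210, had 21.0, 45.0 and 30.9 CPM in DMSO, against 25.9, 74.5 and 39.8 in osimertinib DTP, with 32, 52.8 and 56.1 in osimertinib DTP + AZD5153, and its lead distal region, chr3:11600850-11601351, had 19, 21.5 and 15.4 in DMSO, while osimertinib DTP had 22.3, 32.7 and 24.7 and the sequential group had 32.1, 42.7 and 42.3. At the promoter the groups overlapped. At the distal region all treated libraries were above DMSO, but the region was not called.

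The called VGLL4 region, in an intron at chr3:11691332-11691833, held 5, 9 and 7 counts in DMSO, 51, 52 and 41 in osimertinib DTP, with 40, 41 and 9 in the sequential group. It rose in osimertinib DTP by a log2 fold change of 2.94 (SE 0.63, edgeR adjusted p = 0.00920) and in the sequential group by 2.33 (SE 0.63, edgeR adjusted p = 0.0172). In CPM, every treated library (1.74 to 7.24) was above every DMSO library (0.453 to 0.929). The first call was lost without DMSO replicate 1, 2 or 3 (edgeR adjusted p = 0.0505, 0.0603 and 0.0643), and the second without each of these (0.0832, 0.0616 and 0.0868) and without replicate 1 or 2 of the sequential group (0.0532 and 0.0514). VGLL3, a TEAD cofactor of the same family, had no annotated region.

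The upstream regulators NF2, SAV1 and LATS1 kept their acetylated promoters. LATS1, the kinase that phosphorylates YAP and TAZ, had a single region at chr6:149717668-149718169 with 20.0, 27.9 and 17.4 CPM in the DMSO libraries, 20.5, 78.3 and 16.3 in those of osimertinib DTP and 25.7, 30.2 and 82.9 in those of osimertinib DTP + AZD5153. Apart from the 2 libraries with the highest promoter share, all values were between 16.3 and 30.2 CPM, and the region was not called.

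NF2, the scaffold also named merlin, had the member promoter region with the highest mean count over the 9 libraries. The region at chr22:29603607-29604108 had 39.5, 48.4 and 36.1 CPM in DMSO, against 48.6, 114 and 42.5 in osimertinib DTP, with 56.3, 65.2 and 149 in osimertinib DTP + AZD5153. The values of 114 and 149 are from the 2 libraries with the highest promoter share, and in DMSO its mean of 41.4 ± 6.36 CPM was below the 52.0 ± 12.2 CPM at the internal start of WWTR1 (SD, n = 3). All 21 NF2 regions had a positive log2 fold change in osimertinib DTP against DMSO, with a median of 0.59 (all regions 0.15). None was called by edgeR with all 9 libraries or by DESeq2, while edgeR called 2 higher without replicate 3 of the sequential group and voom with quality weights called 3 higher. At its lead distal region, chr22:29620826-29621327, levels were 48.1, 53.0 and 45.4 CPM in DMSO, against 64.8, 80.2 and 68.7 in osimertinib DTP, with 82.4, 94.5 and 39.2 in the sequential group, so that replicate 3 was the only treated library below DMSO.

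An NF2 flank at chr22:29601620-29602121 rose in the sequential group. It had 5.80, 2.89 and 4.22 CPM in the DMSO libraries, 6.79, 6.26 and 8.76 in those of osimertinib DTP and 13, 14.1 and 18 in those of osimertinib DTP + AZD5153, without overlap between groups. The log2 fold change against DMSO was 1.80 (SE 0.53, edgeR adjusted p = 0.0267). The call was lost without DMSO replicate 1, 2 or 3 (edgeR adjusted p = 0.0563, 0.150 and 0.131) and without replicate 1 of the sequential group (0.0599). Against DMSO, DESeq2 called 3 NF2 regions higher in this group and voom with quality weights 9. EdgeR called 5 higher without replicate 3 of this group, where 35.7% of all regions were called, and 0 without TMM. The NF2 promoter sum was not called by edgeR (adjusted p = 0.0963) but was by DESeq2 (log2 fold change 0.70, adjusted p = 0.0320).

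Genes were also tested on summed counts, with promoter regions and distal regions summed separately, which gave 16 member sums. In osimertinib DTP against DMSO 0 of 16 were called, 2 at an unadjusted p under 0.05, against 8.86% of all 20438 sums, while DESeq2 called 2. The share of all sums that DESeq2 called is not given. In the sequential group against osimertinib DTP 0 of 16 and 0 of all were called, with 0 of 16 and 1017 of all at an unadjusted p under 0.05, and DESeq2 called 0 of 16. Against DMSO 1 of 16 was called, against 15.5% of all.

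That sum was the promoter of SAV1, the scaffold of the MST kinases. It had 44.1, 40.9 and 37.3 CPM in DMSO, against 67.2, 68.3 and 60.1 in osimertinib DTP, with 80.2, 83.3 and 106 in osimertinib DTP + AZD5153, so the groups did not overlap. The log2 fold change against DMSO was 1.14 (SE 0.22, edgeR adjusted p = 0.0104) in the sequential group and 0.68 (SE 0.22, edgeR adjusted p = 0.0902) in osimertinib DTP. The call was lost without DMSO replicate 2 or 3 (edgeR adjusted p = 0.0609 and 0.0647), and without replicate 3 of the sequential group the sum was called in both (edgeR adjusted p = 0.00333 and 0.0196).

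Single SAV1 regions were not called by edgeR with all 9 libraries. In the sequential group against DMSO, edgeR called 1 higher without replicate 3 of that group, and DESeq2 and voom with quality weights called 2 each, while in osimertinib DTP against DMSO voom called 1 higher. The lead promoter region, chr14:50668214-50668715, which overlaps the printed sequence, had 15.6, 22.0 and 13.1 CPM in DMSO, while osimertinib DTP had 21.5, 53.7 and 15.8 and the sequential group had 36.6, 39.9 and 69.6. The lead distal region, chr14:50677237-50677738, had 10.8, 26.0 and 18.7 CPM in the DMSO libraries, 13.1, 12.4 and 13.6 in those of osimertinib DTP and 16, 22.7 and 2.90 in those of osimertinib DTP + AZD5153. At the promoter the sequential libraries were above all DMSO libraries, and at the distal region the groups overlapped.

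The distal sum of WWTR1 was the lowest of the member sums relative to DMSO. It had 200, 237 and 241 CPM in DMSO, against 98.0, 43.1 and 106 in osimertinib DTP, with 103, 101 and 24.1 in osimertinib DTP + AZD5153, and no treated library overlapped with DMSO. The log2 fold change was −1.46 (SE 0.53, edgeR adjusted p = 0.128) in osimertinib DTP and −1.57 (SE 0.53, edgeR adjusted p = 0.0778) in the sequential group. DESeq2 called both (adjusted p = 0.0364 and 0.0190), and edgeR called the first without replicate 3 of the sequential group (adjusted p = 0.0118).

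**Figure D4:**
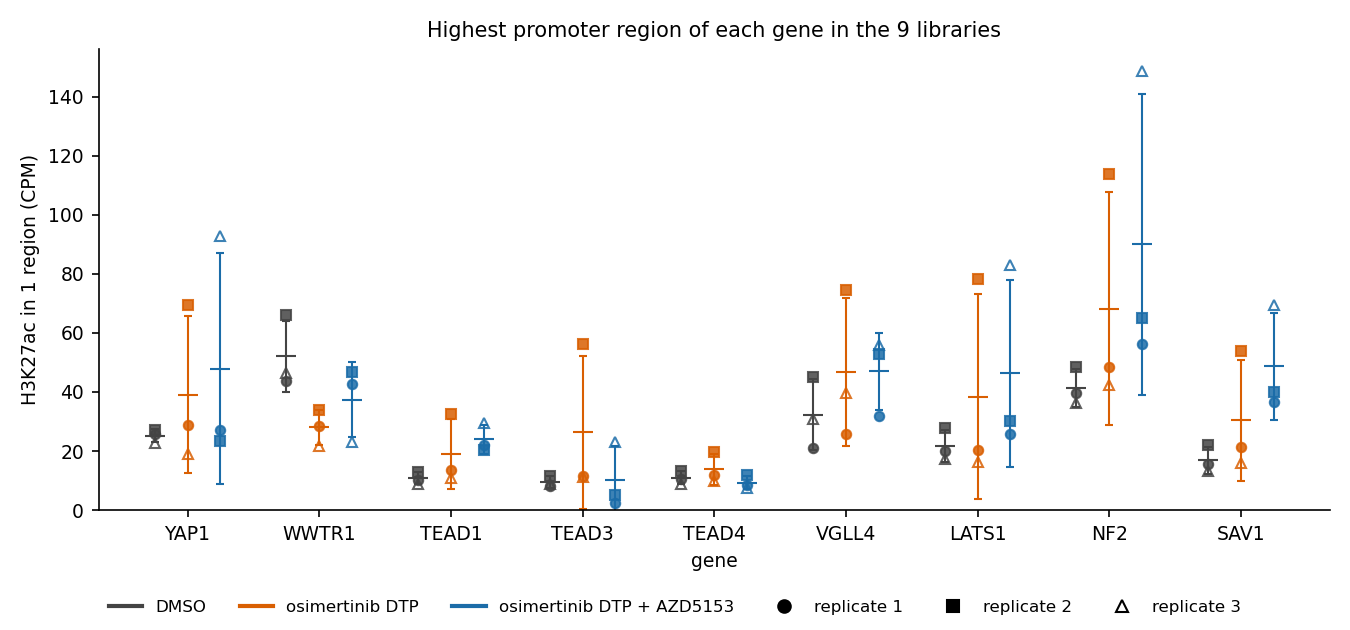
CPM at the promoter region with the highest mean count of each of the 9 genes with regions, with a point per library, a short horizontal line at the group mean and a bar of 1 SD to each side (n = 3). Replicate 2 of osimertinib DTP is the highest of its group in all 9 genes, and at WWTR1 no treated library exceeds 46.7 CPM while DMSO reaches 66.0.

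Peaks that the authors called in each library were set beside the counts; they come from the same libraries and are no independent evidence. Of the 130 member regions, 120, 115 and 119 were overlapped by at least 1 bp of a peak in DMSO, 113, 110 and 110 in osimertinib DTP, with 116, 104 and 79 in the sequential group. These are 92.3%, 88.5% and 91.5%, 86.9%, 84.6% and 84.6%, and 89.2%, 80.0% and 60.8% of the members, against 85%, 82.7% and 81.2%, 84.2%, 84.9% and 84.1%, and 83.2%, 81.8% and 64.1% of all annotated regions. Members were thus covered more often than all regions in DMSO and about as often in osimertinib DTP.

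At WWTR1, peaks covered 23, 22 and 23 of its 25 regions in DMSO, 13, 10 and 11 in osimertinib DTP, with 17, 12 and 10 in the sequential group. Around the internal start it was 16, 15 and 16 of 16 in DMSO, 7, 5 and 7 in osimertinib DTP, with 12, 7 and 7 in the sequential group, whereas the 3 regions of the upstream start were covered in all 6 treated libraries and 2 of 3 in each DMSO library. Neighbouring regions can lie under 1 wide peak, so these count regions and not separate peaks. In DMSO replicate 2 the regions from 149572428 to 149582037 all had the same peak enrichment, 29.4. YAP1 had 19, 19 and 18 of 19 regions covered in DMSO, 17, 15 and 17 in osimertinib DTP, with 16, 14 and 6 in the sequential group. VGLL4 had 23, 24 and 26 of 28 in DMSO, 27 in each osimertinib DTP library and 27, 26 and 14 in the sequential group.

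**Figure D5:**
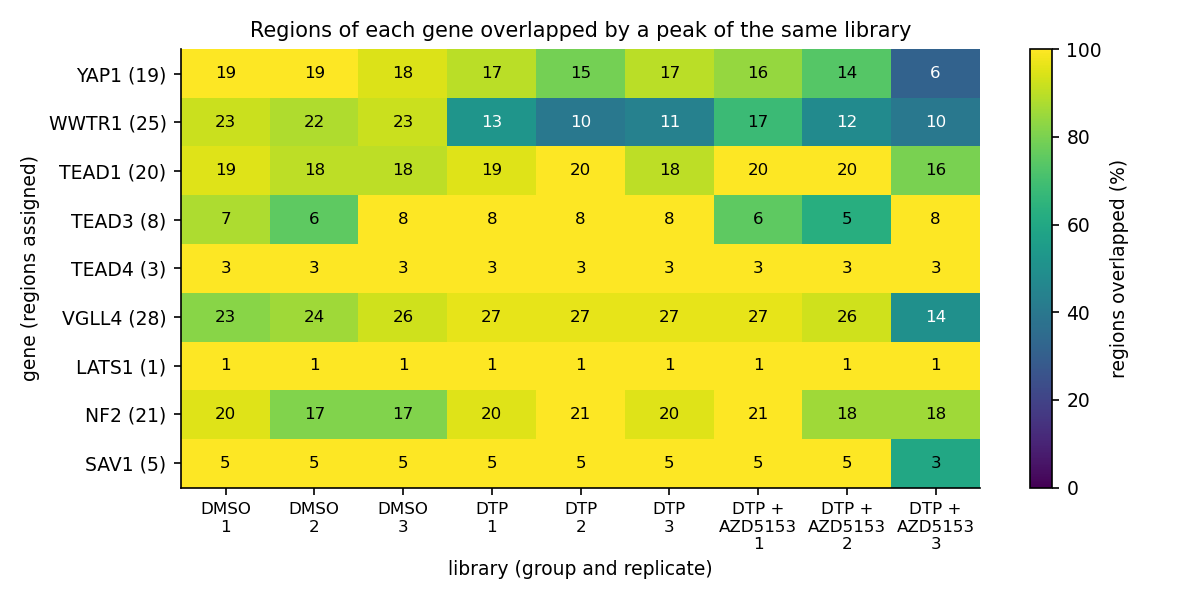
Share of each gene's regions that a called peak overlaps (colour, in percent; the number in each cell is the number of regions), by gene and library. WWTR1 goes from 22 or 23 of 25 regions in DMSO to 10 to 13 in osimertinib DTP, and replicate 3 of osimertinib DTP + AZD5153 is low for YAP1 and VGLL4.

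Other genes of the pathway were taken from a list of 30, of which 27 had annotated regions, 229 in all (DCHS1, SCRIB and WTIP had none). All of them are annotated, while the base of all regions also holds regions without annotation. In osimertinib DTP 29 of these regions were called higher and 16 lower against DMSO (19.7% of them, against 10.7% of all regions), and without replicate 3 of the sequential group 59 higher and 36 lower (41.5%, against 26.8%). With all 9 libraries, the shares were 10.7% of 56 promoter regions, 3.85% of 26 flanks and 25.9% of 147 distal regions. Annotated regions of each class had 4.63%, 14.3% and 20.6%. In the sequential group against DMSO 48 were higher and 27 lower (32.8%, against 18.1%), and 65 and 43 without that library (47.2%, against 35.7%). By class and with all 9 libraries, 21.4% of promoter regions, 19.2% of flanks and 39.5% of distal regions were called. Annotated regions of each class had 8.50%, 23.3% and 30.4%. In the sequential group against osimertinib DTP 0 were called by edgeR, 14 being at an unadjusted p under 0.05. The median log2 fold change was 0.35 and 0.39 against DMSO, where all regions had 0.15 and 0.23. Of 41 summed promoters and distal sets, 5 were higher and 2 lower in osimertinib DTP against DMSO (17.1%, against 8.86% of all sums). In the sequential group against DMSO 6 were higher and 1 lower (17.1%, near the 15.5% of all sums). Without replicate 3 of the sequential group these were 11 and 2, against 23.1% of all sums, and 10 and 1, against 29.2% of all.

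AMOT, which encodes angiomotin, a junction protein that binds YAP, rose from a low level. Its distal sum had 0.450, 0.259 and 0.339 CPM in DMSO, against 9.34, 8.37 and 28.7 in osimertinib DTP, with 13.8, 20.6 and 5.66 in osimertinib DTP + AZD5153, a log2 fold change of 5.40 (SE 0.79, edgeR adjusted p = 0.00961) and 5.20 (SE 0.79, edgeR adjusted p = 0.00513). Its promoter sum had 1.35, 1.94 and 1.86 CPM in the DMSO libraries, 8.54, 14.6 and 13.5 in those of osimertinib DTP and 11.9, 7.61 and 14.6 in those of the sequential group, a log2 fold change of 2.82 (SE 0.44, edgeR adjusted p = 0.0110) and 2.71 (SE 0.44, edgeR adjusted p = 0.00572). No treated library overlapped with DMSO in either sum, and the distal one rests on very few DMSO counts.

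VGLL2, a TEAD cofactor of the same family as VGLL4, had a distal sum of 1.65, 0.776 and 0.677 CPM in DMSO, against 24.8, 17.1 and 47.3 in osimertinib DTP, with 26.9, 23.5 and 6.06 in the sequential group (log2 fold change in osimertinib DTP 4.82, SE 0.73, edgeR adjusted p = 0.0105). DLG5, a scaffold protein, had 1 distal region that fell from 11.1, 13.3 and 14.2 CPM in DMSO to 3.22, 1.87 and 2.60 in osimertinib DTP, with 1.03, 0.634 and 0.202 in the sequential group (log2 fold change −4.28 in the last, SE 0.55, edgeR adjusted p = 0.00341). Both genes were free of overlap with DMSO. The osimertinib DTP calls of AMOT and VGLL2 were lost without DMSO replicate 2 (edgeR adjusted p = 0.0693 for the AMOT distal sum, 0.0710 for its promoter and 0.0731 for VGLL2) and without DMSO replicate 3 (0.0656, 0.0658 and 0.0656), where 0% of all sums were called in either fit.

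The genes whose summed level followed YAP1 and WWTR1 most closely over the 9 libraries were found among 4505 genes with at least 5 regions. For WWTR1 they were MAPKAP1 (Pearson r = 0.994), TMIGD1 (0.993) and MIR548G (0.989), and for YAP1 TMEM230 (0.928), PTGIS (0.924) and AFAP1 (0.908). The 9 points share group, depth and promoter share between genes, so these values describe likeness across these libraries only.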

How the data were processed

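H3K27ac ChIP-seq of H1975 cells was analysed in 9 libraries (3 groups of 3 replicates, taken from the sample titles) and 1 pooled input. The authors deposited raw read counts over 169637 regions, not normalized. They also deposited the same counts for 67387 regions annotated with gene symbol and distance, and 1 peak list per library. In the deposited lists, peak scores are given as −log10 q values and fold enrichment. The submitters' processing notes name hg38, BWA 0.7.17, MACS2 2.2.6, featureCounts 2.0.0 and ChIPseeker 1.29.1, without saying how they were used. Whether duplicate reads were removed is not given in the sources used here. The paper given with the series describes no ChIP-seq.

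The test was that of edgeR 4.0.16, with limma 3.58.1 and R 4.3.3, in a single fit of the 9 libraries with a mean per group: filterByExpr (minimum count 10), TMM scaling, glmQLFit with robust estimation and glmQLFTest, two-sided. This left 157919 regions, and all 130 members were among them. P-values were adjusted over these regions with the Benjamini-Hochberg method at 0.05, and the SE is the log2 fold change divided by the square root of F. CPM are per TMM-scaled library size. Gene sums (20438 tested) were fitted the same way, and their CPM are relative to the counts in such sums. Peak overlaps were counted with bedtools 2.31.1. Promoter windows came from RefSeq tables (GRCh38.p14), without a genome. For 124 of the 130 regions, the assigned transcript kept to its gene's RefSeq bounds, with 1 kb allowed. This check concerns the transcript, and the region itself can lie outside those bounds. The scripts were tested on simulated data. The result for 1 marker gene is not reported here.

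Deviations from the group mean correlated across regions between osimertinib DTP and DMSO libraries of the same replicate number, at 0.334, 0.355 and 0.324. For osimertinib DTP + AZD5153 these correlations were 0.243, 0.0262 and −0.240 with osimertinib DTP and −0.0183, 0.553 and 0.362 with DMSO. Libraries of different numbers were not compared in this way, so whether the numbers pair the libraries is not settled, and the main fit does not pair them. What the number marks is not stated.

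The members, the gene lists and the tests were chosen with earlier results of these data known. Named regions are, per gene, the promoter and the distal region with the highest mean count and up to 3 called regions per comparison with the largest absolute log2 fold change. Of the pathway list, up to 3 sums with the smallest p per comparison are named. Other settings tried were DESeq2 1.42.0, a loess offset (span 0.3), no TMM, no filter, annotated regions alone, only both groups compared, a replicate block, voom quality weights, saturation-corrected counts, promoters within 3 kb, leaving out each library, and for peaks a wider overlap with the region or a −log10 q of at least 5. No H3K27ac count of a member exceeded 822, where 1 read per start position and strand allows 1152. Counting intervals are exact, at 95%, and cover counting error only.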

Additional observations from a re-analysis of the deposited data

Results flagged for a closer look

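VGLL3 had no region in the annotated table, but 7 regions of the full count table lay inside its RefSeq bounds (chr3:86937973-86991149), and 2 of them were called higher in osimertinib DTP + AZD5153 against DMSO. They drew attention because they were above DMSO and the comparisons above do not use them. Inside the RefSeq bounds of all 10 genes, 122 regions carried no annotation and 118 of these were tested, and no other one was called higher against DMSO. At chr3:86961512-86962013 the counts were 3, 3 and 4 in DMSO, against 19, 17 and 34 in osimertinib DTP, with 39, 40 and 0 in the sequential group (log2 fold change 3.11, edgeR adjusted p = 0.0305). At chr3:86960249-86960750 they were 0, 2 and 1 in the DMSO libraries, 11, 5 and 17 in those of osimertinib DTP and 16, 28 and 0 in those of the sequential group (log2 fold change 3.89, edgeR adjusted p = 0.0359). The second rests on 3 DMSO counts in all, and its ratio of summed counts per scaled library size was 18.9, with a 95% exact interval of 6.07 to 95.3 that covers counting error only. The input held 10 and 9 counts there, so the DMSO libraries were not above the input count.

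All 7 VGLL3 regions had a positive log2 fold change in osimertinib DTP against DMSO (2.00 to 3.38) and in the sequential group against DMSO (1.33 to 3.89). Of the 7, 0 were called in the first comparison by edgeR and 6 without replicate 3 of the sequential group, whose counts were 0 or 1 at each of them. In the second comparison 2 were called with that library and 6 without it.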

How the results depend on the processing

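The number of called member regions moved with the library left out and with the tool. Leaving out 1 library at a time, it ranged from 2 to 30 in osimertinib DTP against DMSO and from 6 to 38 in osimertinib DTP + AZD5153 against DMSO, and was 0 in every such fit between the treated groups. In the first comparison it was 8, 2 and 4 without DMSO replicate 1, 2 and 3, 7, 5 and 4 without osimertinib DTP replicate 1, 2 and 3, and 30 without replicate 3 of the sequential group. In the last comparison it was 14, 6 and 8 without DMSO replicate 1, 2 and 3, and 13 and 38 without replicate 1 and 3 of the sequential group. Without that replicate 3, the counts of 30 and 38 stand beside 26.8% and 35.7% of all regions. For most other settings, here and above, the share over all regions is not given. A change in calls at these genes alone cannot then be told apart from a change over all regions. With voom quality weights 35, 5 and 56 members were called in osimertinib DTP against DMSO, the sequential group against osimertinib DTP and the sequential group against DMSO, and with only both groups in the fit 33 in the first. For the summed promoters and distal sets, the numbers were 2 and 3 with DESeq2, 6, 1 and 10 with voom quality weights, 2 without TMM and 2 with the loess offset in the sequential group against DMSO, 2 with only both groups in osimertinib DTP against DMSO, and 0 to 2 when a library was left out. With the replicate block 15, 0 and 23 regions and 0, 0 and 1 sums were called, and of the named results the block changed only the call of chr3:149736468-149736969. The share of member regions overlapped by a peak (90.8% in DMSO and 85.4% in osimertinib DTP) became 86.7% and 81.8% when a peak had to cover a larger share of the region, and 85.9% and 83.1% at a −log10 q of at least 5. Of 270 values of named regions under other settings, 220 kept direction and call, 50 kept the direction but lost the call and 0 reversed, and of 126 for named sums 118 kept both and 8 lost the call. The median log2 fold change over all regions went from 0.15 and 0.23 against DMSO to 0.06 and −0.02 without TMM. The cause of these differences was not tested. Counts under 10 in a library limit the distal regions of WWTR1, VGLL4 and VGLL3.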

Other observations

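Regions that the annotated table leaves out were also called lower, inside the RefSeq bounds of WWTR1 and TEAD1. WWTR1 had 18 such regions, of which edgeR called 4 lower in osimertinib DTP and 7 lower in osimertinib DTP + AZD5153, both against DMSO, and 0 higher. The lowest, at chr3:149678069-149678570, held 24, 50 and 21 counts in the DMSO libraries, 2, 0 and 4 in those of osimertinib DTP and 5, 8 and 6 in those of the sequential group. Its log2 fold change was −3.82 (SE 0.89, edgeR adjusted p = 0.0135) in osimertinib DTP and −1.88 (SE 0.79, edgeR adjusted p = 0.107) in the sequential group, and no treated library reached the DMSO counts. The input held 9 counts there, so the treated libraries were not above the input count.

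TEAD1 had 28 such regions, 1 of them called lower in the sequential group against DMSO. At chr11:12686708-12687209 the counts were 38, 23 and 39 in DMSO, against 14, 6 and 28 in osimertinib DTP, with 6, 10 and 2 in the sequential group (log2 fold change −2.12, SE 0.70, edgeR adjusted p = 0.0420). The remaining 7 genes with such regions (YAP1, TEAD3, TEAD4, VGLL4, LATS1, NF2 and SAV1) had none called by edgeR against DMSO.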
